A study of Mus musculus with 8 samples.

Results

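The mitochondrial ribosomal protein genes, carried under the symbols Mrpl (large subunit) and Mrps (small subunit), were examined in the mouse melanoma line Yumm5.2. Members were all genes whose symbol is Mrpl or Mrps followed by a number and at most 1 letter from a to c. This rule gave 78 of the 55492 genes in the count table, 49 Mrpl and 29 Mrps. Both groups were the same line, with the strain labelled C57B/6J and no engineered allele named in the labels. 4 libraries came from cells cultured for 20 h with DMSO, the solvent control. The other 4 came from cells cultured for 20 h with 4-OI, described as a permeable itaconate (4-OI is the usual short name of 4-octyl itaconate, a cell-permeable derivative of itaconate). No label read here states the dose, and 1 line was studied. By its title the study concerns an itaconate transporter, ferroptosis resistance and tumor immunity, and the comparison asks how polyadenylated RNA differs between the treatments.

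The mitochondrial ribosome translates the few messenger RNAs encoded by mitochondrial DNA, which specify core subunits of the respiratory chain and of ATP synthase. Its ribosomal RNAs are made inside the organelle, while all of its proteins are encoded in the nucleus, made in the cytosol and imported. Many of these proteins have a counterpart in the bacterial ribosome, and others are found only in mitochondria. Parts of the large subunit named here are the stalk that recruits translation factors, the central protuberance at its top and the tunnel exit from which new proteins leave at the inner membrane.

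Total counts were 22962963 to 31361677 per library. Of the melanocyte lineage list, only Mitf reached 1 CPM (counts scaled to a common library size, corrected for composition with TMM), and the pigment gene Tyr and the lineage factor Sox10 had counts of 0 to 2 per library, so these markers of the labelled origin were nearly absent. The summed level of 7 melanocyte markers was 6.32 to 7.46 CPM with DMSO and 9.68 to 10.8 CPM with 4-OI. Leukocyte, endothelial and keratinocyte lists each summed to less than 1 CPM in every library, with Adgre1 and Kdr at 0. A list of 5 fibroblast and mesenchymal genes, of which 4 reached 1 CPM, summed to 2601 to 2766 CPM with DMSO and 1813 to 1897 CPM with 4-OI. Col1a2 made up most of that sum (means 2457 and 1692 CPM), while Pdgfra was at 107 and 114 CPM. The part of these shifts in the results below was not tested. In such bulk RNA, fewer cells expressing a gene and less RNA per cell cannot be told apart.

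Of the 78 members, 11 rose and 8 fell with 4-OI, and the changes were small except for Mrpl14. All 78 members passed the filter on low counts, with 295 to 4359 counts per library. A gene was called changed at an adjusted p under 0.05 in edgeR's quasi-likelihood test over 13531 genes. Calls were made for 24.4% of the members, against 38.8% of all genes tested. The share higher was 14.1% of the members against 19.3% of all genes, and the share lower was 10.3% against 19.6%. Among genes tested whose lowest count was also at least 295, 47.3% were called. The median size of a log2 fold change, taken without its sign, was 0.05 in the members and 0.12 in all genes tested. It was 0.09 in the genes with a lowest count of at least 295. The median standard errors were 0.043 in the members, 0.049 in all genes tested and 0.036 in the genes with a lowest count of at least 295.

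The median signed log2 fold change was 0.02 over the members, and 47 values were positive and 31 negative. The split of calls moved with the scaling: 11 higher and 8 lower became 16 and 6 with plain library totals, and 8 and 10 with offsets for GC content and length. The split over all genes moved in the same directions. Its 2607 higher and 2646 lower became 3020 and 2323 with library totals, and 2529 and 3032 with the offsets. For 73 of the 78 members the 95% confidence interval lay within a 1.2-fold change in either direction (0.26 on the log2 scale), as it did for 7125 of all 13531 genes. The 5 exceptions among the members were Mrpl14, Mrpl33, Mrpl34, Mrps18a and Mrps26. Of the 8341 genes tested with a lowest count of at least 295, 6420 had an interval within 1.2-fold. A call together with a change of at least 1.2-fold was found for 1 member, Mrpl14, and for 14.9% of all genes tested. It was found for 957 of the 8341 genes with a lowest count of at least 295. The levels of the 4 DMSO and the 4 4-OI libraries did not overlap for 13 members (16.7%), 7 above and 6 below, against 35.4% of all genes (17.4% above and 18.0% below). The plot of all members by fold change shows Mrpl14 apart from a band around 0.

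**Figure D1:**
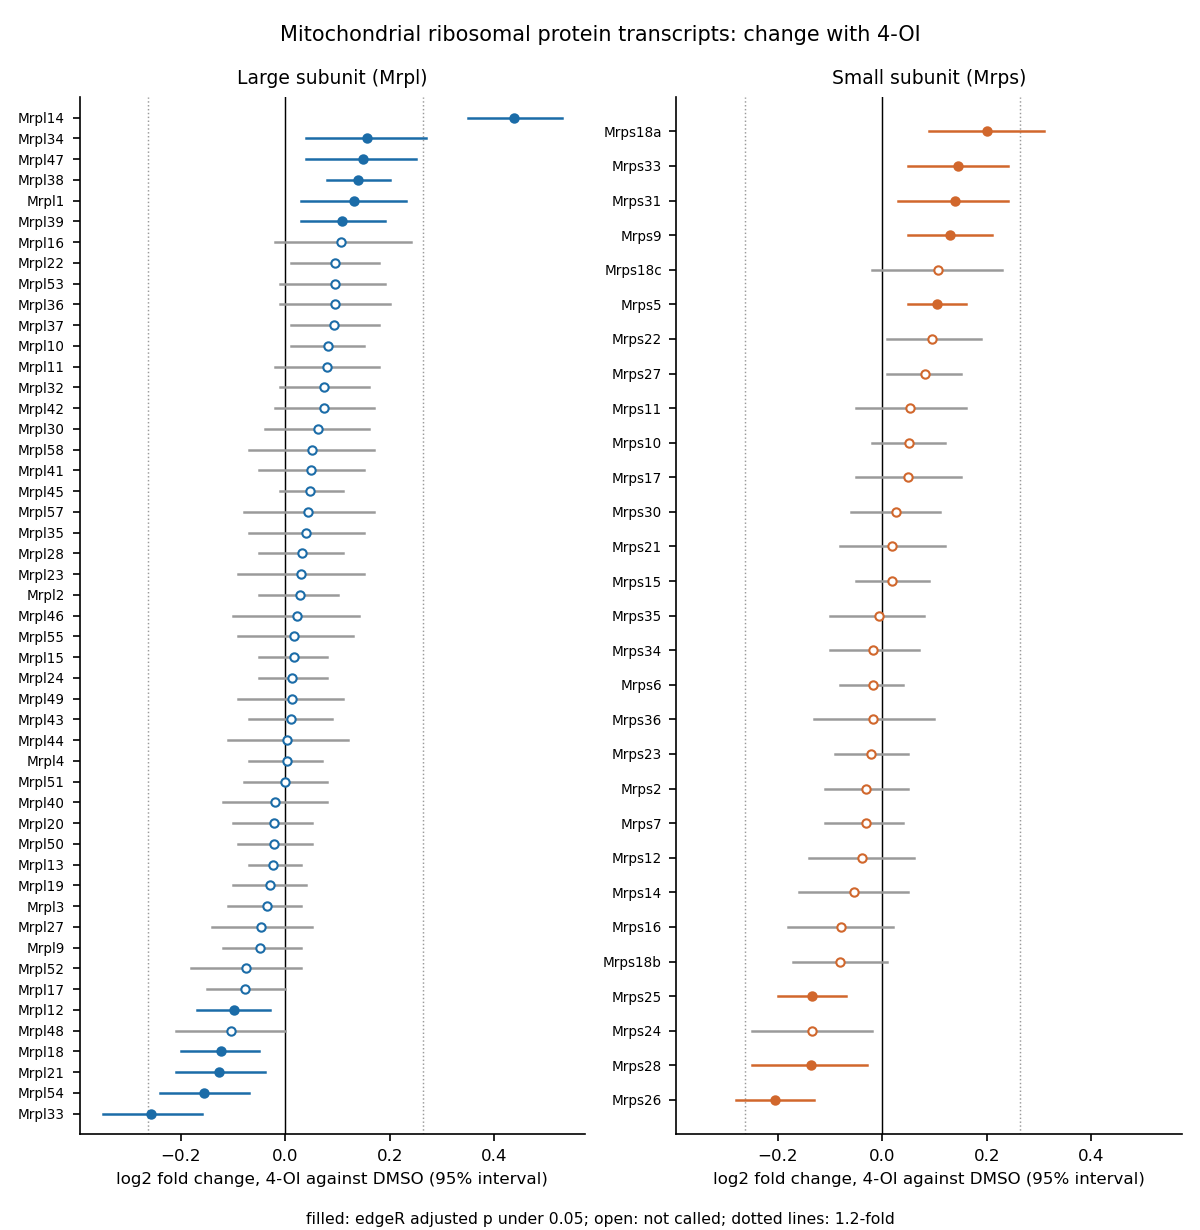
Log2 fold change of 4-OI against DMSO for the members, by subunit, with 95% confidence intervals from edgeR's quasi-likelihood fit; filled points are called, open points are not, and dotted lines mark 1.2-fold. Mrpl14 lies at 0.44, and the other members lie between -0.26 and 0.20.

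Both subunits had calls in both directions. Of the 49 Mrpl genes, 6 rose, 5 fell and 38 were not called, with a median log2 fold change of 0.02. Of the 29 Mrps genes, 5 rose, 3 fell and 21 were not called, with a median of -0.01 (0.011 with plain library totals). The share called was thus 22.4% of the Mrpl and 27.6% of the Mrps genes, against 38.8% of all genes tested. It was 47.3% among genes tested with a lowest count of at least 295. The median over all genes was 0.000, and 0.018 with plain library totals. A few symbols do not give the place in the ribosome: Mrps18a and Mrps30 sit in the large subunit, and Mrps36 is known as a component of the oxoglutarate dehydrogenase complex. With these moved, 7 of 51 large-subunit genes rose and 5 fell, and 4 of 26 small-subunit genes rose and 3 fell.

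The summed level of the Mrpl genes was 2036 ± 32.1 CPM with DMSO and 2060.1 ± 26.2 CPM with 4-OI (SD, n = 4 each). The Mrps genes summed to 1221 ± 15.6 and 1224 ± 16.2 CPM. The ratio of the sums, large to small, in each library was 1.66, 1.67, 1.66 and 1.67 (DMSO) and 1.68, 1.67, 1.69 and 1.69 (4-OI). The mean ratios were 1.667 and 1.684, a difference of 0.016, larger than the SD within either group (0.00743 and 0.00891). The groups overlapped at their edges (1.659 to 1.674 with DMSO and 1.673 to 1.692 with 4-OI), and the difference was not tested, since it is a score over the members. Mrpl14 alone went from 35.4 to 48.1 CPM within the Mrpl sum, and the ratio without Mrpl14 was not computed. On the TPM scale (a share of all transcripts that takes their length into account) the family held 0.649 ± 0.00751% of the total with DMSO and 0.662 ± 0.00732% with 4-OI. The family summed to 6487 and 6624 TPM, within which Mrpl14 alone went from 144 to 216 TPM.

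Members with and without a bacterial counterpart also had calls in both directions. Of 46 members listed as having a bacterial counterpart, 6 rose and 5 fell, and of 31 listed as found only in mitochondria, 5 rose and 3 fell. These were 23.9% and 25.8% called, against 38.8% of all genes tested. Mrpl47, which rose, was listed among the latter but is the counterpart of a bacterial protein. Moving it, a correction made after its value was known, gave 12 of 47 (25.5%) and 7 of 30 (23.3%) called.

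Levels differed far more between members than between treatments. Mean TPM over all 8 libraries ran from 15.3 (Mrpl19) to 375 (Mrpl52), with a median of 69.7 in the members and 15.9 in all genes tested. Among Mrpl genes the highest were Mrpl52 (375 TPM), Mrpl13 (234) and Mrpl42 (219), and the lowest were Mrpl19 (15.3), Mrpl1 (18.1) and Mrpl16 (22.6). Among Mrps genes the highest were Mrps21 (326 TPM), Mrps6 (204) and Mrps18b (114), and the lowest were Mrps30 (18.4), Mrps25 (25.4) and Mrps31 (25.5). Longer transcripts had lower TPM (across the 78 genes, Pearson r = -0.54 and Spearman rho = -0.51), a description only, since TPM itself divides by length. The log2 fold change had little relation to length (r = -0.03) or level (r = -0.11).

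**Figure D2:**
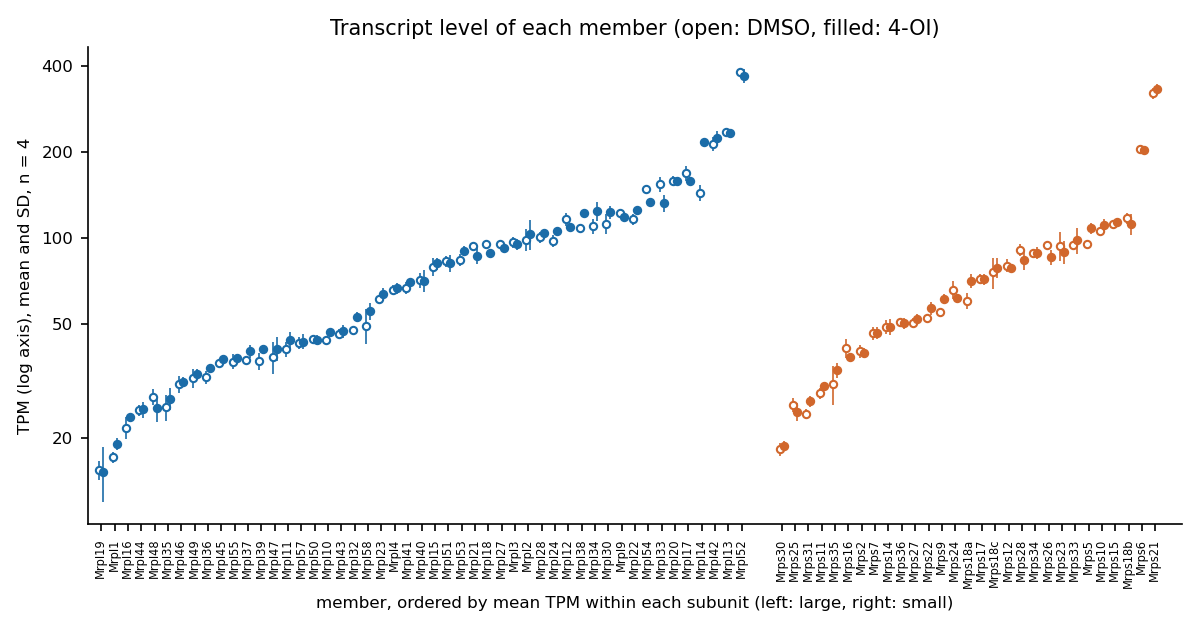
Level of each member in TPM on a log axis, ordered by level within the large (left) and small (right) subunit, as mean and SD of 4 libraries with DMSO (open) and 4-OI (filled). Means over both groups run from 15.3 to 375 TPM, and Mrpl14 has the widest gap between open and filled points, 144 and 216 TPM.

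The start regions of the members with the largest changes are shown because the results turn on them: Mrpl14 and Mrps18a rose most, and Mrpl33 and Mrps26 fell most. Sequences are from RefSeq on GRCm38.p6, given 5′ to 3′ on the gene's strand (all +), from 250 bases before the start to 30 bases after it. The regions are chr17:45686099-45686378 (Mrpl14), chr17:46110754-46111033 (Mrps18a), chr5:31613701-31613980 (Mrpl33) and chr2:130563507-130563786 (Mrps26). Capitals mark matches, on either strand, to letters bound by factors known for nuclear genes of mitochondria: NRF1 (its GC-rich element), ETS factors such as GABP (CCGGAAG), YY1 (AAGATGGCG) and the CCAAT box (CCAAT).
Mrpl14: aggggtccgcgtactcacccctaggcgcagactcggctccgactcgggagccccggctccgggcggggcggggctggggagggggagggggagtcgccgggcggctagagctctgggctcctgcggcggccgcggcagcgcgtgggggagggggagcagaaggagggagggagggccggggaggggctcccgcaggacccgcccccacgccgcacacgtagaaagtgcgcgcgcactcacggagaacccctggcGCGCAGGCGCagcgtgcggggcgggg
Mrps18a: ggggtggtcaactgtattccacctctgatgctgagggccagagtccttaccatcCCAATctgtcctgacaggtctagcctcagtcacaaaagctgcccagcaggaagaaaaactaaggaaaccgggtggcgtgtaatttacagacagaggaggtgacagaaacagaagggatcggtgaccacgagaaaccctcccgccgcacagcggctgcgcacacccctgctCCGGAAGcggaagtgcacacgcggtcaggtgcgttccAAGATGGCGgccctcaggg
Mrpl33: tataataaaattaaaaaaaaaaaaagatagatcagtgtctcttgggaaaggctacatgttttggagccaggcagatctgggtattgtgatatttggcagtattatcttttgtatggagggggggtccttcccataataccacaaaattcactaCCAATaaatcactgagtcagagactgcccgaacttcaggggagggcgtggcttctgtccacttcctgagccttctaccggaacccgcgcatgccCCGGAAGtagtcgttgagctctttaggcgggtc
Mrps26: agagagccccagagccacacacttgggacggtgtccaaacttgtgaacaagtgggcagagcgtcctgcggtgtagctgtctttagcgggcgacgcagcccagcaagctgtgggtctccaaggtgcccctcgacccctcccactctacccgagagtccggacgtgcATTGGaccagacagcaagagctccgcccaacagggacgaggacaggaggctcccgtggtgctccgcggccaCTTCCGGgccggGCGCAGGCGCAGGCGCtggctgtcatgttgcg
Mrpl14 carried NRF1 letters near its start and Mrps18a carried ETS and YY1 letters. Of the pair that fell, Mrpl33 carried ETS letters and Mrps26 carried 2 overlapping NRF1 matches and an ETS match, so the same letters stood beside changes in both directions.

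Windows of 300 bases (250 before and 50 after the start) were present for 69 members. NRF1 letters were in 18.8% of them, against 11.8% of the windows of 9826 genes tested. ETS letters were in 37.7% against 20.8%, and YY1 letters in 11.6% against 3.64%. The antioxidant response element bound by NRF2 (TGACNNNGC) was in 20.3% against 16.9%, the E-box (CACGTG) in 7.25% against 11.8%, and CCAAT in 39.1% against 43.6%. By call, ETS letters were in 3 of 10 windows of members that rose, 4 of 6 that fell and 19 of 53 not called. NRF1 letters were in 3, 2 and 8 of the same windows, and antioxidant letters in 3, 1 and 10. A match is a description of the letters and not evidence of binding, and windows of all genes tested are the background here.

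Mrpl14, a large-subunit protein at the face that meets the small subunit, rose most. Its gene lies on chromosome 17 at 45686322 to 45698495 on the + strand of GRCm38. The DMSO libraries had 33.4, 34.4, 35.2 and 38.6 CPM, and the 4-OI libraries had 46.2, 49.0, 48.1 and 48.9 CPM. Every 4-OI library was above every DMSO library. The means were 35.4 ± 2.25 and 48.1 ± 1.31 CPM, a log2 fold change of 0.44 (SE 0.04, 95% confidence interval 0.35 to 0.53, edgeR adjusted p = 9.03e-08), or 35.5% higher. The call held in all 16 alternatives tried. The size of its change, without the sign, stood at percentile 89.4 of all genes tested. Malsu1, an assembly factor that binds the Mrpl14 protein, was at 24.0 ± 0.220 and 24.9 ± 0.628 CPM (adjusted p = 0.349).

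Mrpl14 has a neighbour that starts on the other strand, Tmem63b, which encodes a membrane ion channel, and both rose to the same degree. Tmem63b had 68.1, 64.7, 64.1 and 65.4 CPM with DMSO and 88.4, 91.9, 89.3 and 87.2 CPM with 4-OI. Its log2 fold change was 0.44 (SE 0.03, edgeR adjusted p = 3.19e-10). In the RefSeq windows the starts of Mrpl14 and Tmem63b are 131 bases apart, so the printed Mrpl14 region holds both. In GENCODE M21 the genes overlap and share 106 exon bases. The sources used here do not name a strand setting for the counting, and reads from the shared stretch cannot be told apart between the genes.

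On the TPM scale Mrpl14 went from 144 ± 9.03 to 216 ± 3.85 TPM (SD, n = 4 each), a log2 ratio of 0.58, which is more than the 0.44 in counts. Counts per TPM, which follow the estimated length of the transcripts in use, were 1.01, 1.01, 0.98 and 1.00 with DMSO and 0.89, 0.92, 0.90 and 0.94 with 4-OI, relative to the DMSO mean. The 4-OI libraries were all lower, so the mix of Mrpl14 transcripts was estimated as shorter with 4-OI. A gap of more than 0.1 between the scales was found for 3 of the 78 members (3.85%) and for 6.84% of 9268 genes above 5 TPM. The other members past it were Mrps35 and Mrpl58, whose groups overlapped. Mrpl24, at a gap of 0.10, was the other member whose groups did not overlap in counts per TPM: 0.99, 1.04, 1.01 and 0.96 with DMSO and 0.92, 0.94, 0.92 and 0.94 with 4-OI.

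**Figure D3:**
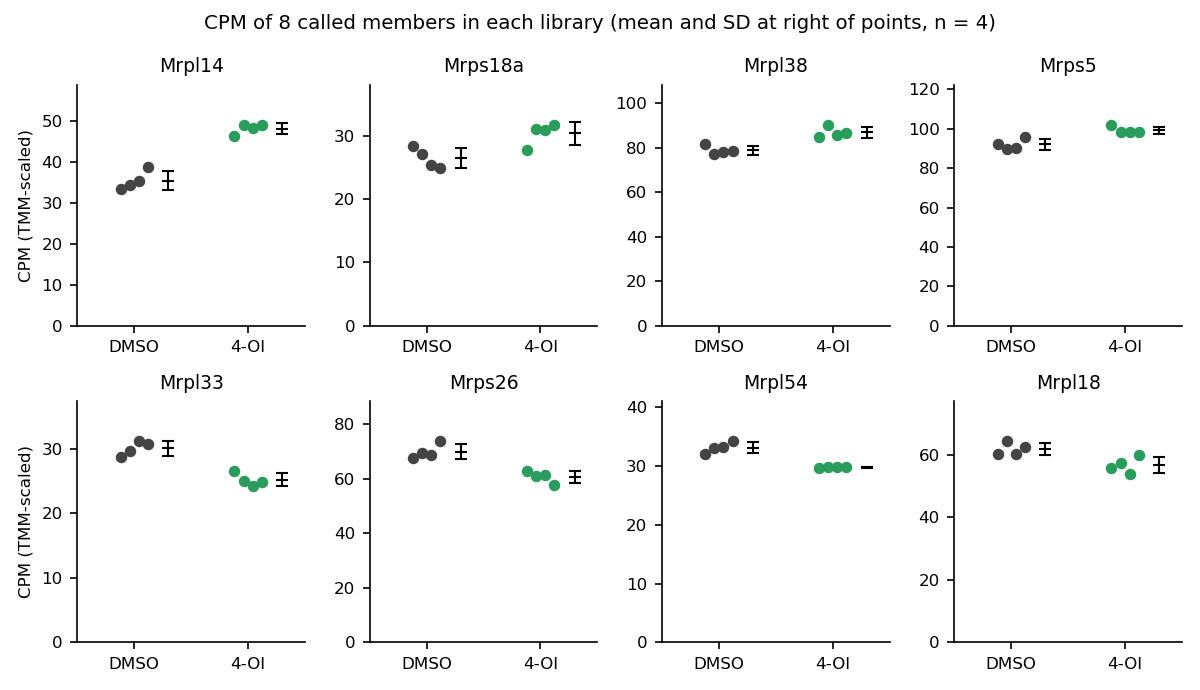
Level in each library (CPM, axes from 0) of 8 called members, 4 that rose (top) and 4 that fell (bottom), with the mean and SD of each group beside its points. Groups do not overlap except for Mrps18a, where 4-OI replicate 1 (27.7 CPM) lies below DMSO replicate 1 (28.3 CPM).

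Several members belong to the central protuberance, and the named set holds 1 that rose and 1 that fell. Mrpl38, found only in mitochondria, had 81.7, 77.1, 78.2 and 78.6 CPM with DMSO and 84.6, 90.3, 85.9 and 86.7 CPM with 4-OI. No libraries overlapped, and the log2 fold change was 0.14 (SE 0.03, edgeR adjusted p = 0.000914). Mrpl18, which in bacteria has a counterpart that binds the small ribosomal RNA of the large subunit, had 60.4, 64.4, 60.2 and 62.7 CPM with DMSO and 55.9, 57.4, 54.0 and 60.0 CPM with 4-OI. Its 4-OI libraries were all lower (log2 fold change -0.12, SE 0.04, adjusted p = 0.0102). Both calls held in all 16 alternatives. Of others known there, and named after their values were seen, Mrpl40 (log2 fold change -0.02), Mrpl46 (0.02) and Mrpl48 (-0.10) were not called. Elsewhere in the large subunit, Mrpl28, known as a melanoma antigen recognised by T cells, was at 56.1 ± 2.92 and 57.5 ± 1.48 CPM. Its interval of -0.05 to 0.11 on the log2 scale takes in 0 (adjusted p = 0.532).

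At the factor-binding stalk the 3 members gave different values. Mrpl12, the repeated stalk protein that is also known to bind the mitochondrial RNA polymerase, had 88.6, 87.1, 79.7 and 87.6 CPM with DMSO and 77.3 to 83.5 CPM with 4-OI (mean 80.1 ± 2.57, SD, n = 4). The groups overlapped through DMSO replicate 3 (log2 fold change -0.10, SE 0.03, edgeR adjusted p = 0.0286). This call was lost when any of 6 libraries was left out, all but DMSO replicate 3 and 4-OI replicate 4 (adjusted p 0.0517 to 0.103). It was also lost with edgeR on library totals (adjusted p = 0.0675), DESeq2 (0.0590), limma on TPM (0.129) and limma on FPKM (0.133). Mrpl10, which anchors the stalk, was at 45.2 ± 0.632 and 47.9 ± 1.02 CPM, with all 4-OI libraries above (log2 fold change 0.08, adjusted p = 0.0599). Mrpl11, at the stalk base, was at 21.3 ± 1.15 and 22.6 ± 0.494 CPM (adjusted p = 0.211). Mrpl1 forms the stalk on the opposite side, where spent tRNA leaves, and rose from 25.4, 27.5, 24.0 and 24.5 CPM to 27.6, 28.1, 26.5 and 28.8 CPM. Its groups overlapped (log2 fold change 0.13, adjusted p = 0.0389). The call was lost when any of 5 libraries was left out: DMSO replicates 1, 3 and 4 and 4-OI replicates 2 and 4 (adjusted p 0.0633 to 0.113). It was also lost with GC and length offsets in edgeR (adjusted p = 0.0820), limma on TPM (0.0639) and DESeq2 (0.0858).

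Mrpl45, Mrpl58 and Mrpl32 were not called. Mrpl45, which holds the ribosome at the inner membrane, was at 56.8 ± 0.509 CPM with DMSO and 58.7 ± 0.704 CPM with 4-OI. Its 4-OI libraries were all higher, but the log2 fold change of 0.05 had an adjusted p of 0.216. Mrpl58, a peptidyl-tRNA hydrolase that frees stalled ribosomes, was at 23.7 ± 2.20 and 24.7 ± 0.727 CPM (adjusted p = 0.512). Mrpl32 is cut to its mature form by the m-AAA protease before it can join the ribosome. It was at 29.4 ± 0.709 and 30.9 ± 0.386 CPM, with all 4-OI libraries above (log2 fold change 0.07, adjusted p = 0.161).

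Of the remaining large-subunit proteins with a bacterial counterpart, Mrpl33 fell most in the family. It lies on chromosome 5 at 31596935 to 31664384. The DMSO libraries had 28.7, 29.7, 31.2 and 30.8 CPM and the 4-OI libraries 26.6, 25.1, 24.2 and 24.9 CPM. All 4-OI libraries were lower, with a log2 fold change of -0.26 (SE 0.05, 95% confidence interval -0.35 to -0.16, edgeR adjusted p = 0.000137), and the call held in all 16 alternatives. Mrpl33 overlaps Rbks on the other strand, which was at 1.09 CPM. Mrpl21 had 32.2, 31.9, 31.2 and 30.5 CPM with DMSO and 28.2, 30.2, 27.9 and 28.8 CPM with 4-OI (log2 fold change -0.13, adjusted p = 0.0212). Its groups did not overlap, yet the call was lost without any one of DMSO replicates 1 and 2 and 4-OI replicates 1 and 3 (adjusted p 0.0544 to 0.0699). It was also lost with edgeR without the filter (adjusted p = 0.0673), DESeq2 (0.0716), limma on TPM (0.0808) and limma on FPKM (0.0901).

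Mrpl34, which has a bacterial counterpart, rose from 26.1, 25.2, 22.3 and 25.8 CPM to 27.8, 28.0, 29.4 and 25.9 CPM (log2 fold change 0.16, SE 0.05, adjusted p = 0.0258). 4-OI replicate 4 lay within the DMSO range, and the call was lost without DMSO replicate 3 or 4-OI replicate 3 (adjusted p 0.0940 and 0.104). It was also lost with limma on TPM (adjusted p = 0.0542). Mrpl47, as given above a counterpart of a bacterial protein, rose from 29.8, 34.9, 30.4 and 33.2 CPM to 33.5, 35.7, 35.8 and 37.2 CPM (log2 fold change 0.15, adjusted p = 0.0239). 1 of its 4-OI libraries lay below the highest DMSO library, and the call was lost without any one of DMSO replicates 1 and 3 and 4-OI replicates 3 and 4 (adjusted p 0.0582 to 0.0972). The Mrpl47 call was also lost with limma on TPM (adjusted p = 0.492) and on FPKM (0.446).

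Of proteins found only in mitochondria, Mrpl54 fell from 32.0, 33.0, 33.3 and 34.2 CPM to 29.6, 29.8, 29.9 and 29.8 CPM. The 4-OI libraries were close together and all below DMSO (log2 fold change -0.16, SE 0.04, edgeR adjusted p = 0.00359, held in all 16 alternatives). Mrpl39, which resembles a tRNA synthetase, went from 53.0 ± 1.90 to 57.1 ± 2.46 CPM. It was named after its value was seen, because it is 1 of the calls outside the naming rule. Its log2 fold change was 0.11 (adjusted p = 0.0257), and the call was lost without any one of DMSO replicates 2 and 4 and 4-OI replicate 4 (adjusted p at least 0.0717).

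The most abundant large-subunit transcripts were not called. Mrpl52 had a log2 fold change of -0.08 (adjusted p = 0.240), Mrpl13 of -0.02 (adjusted p = 0.464) and Mrpl42 of 0.07 (adjusted p = 0.223). The values for the least abundant were -0.03 for Mrpl19 and 0.11 for Mrpl16 (adjusted p = 0.188).

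Among small-subunit genes, Mrps26 fell most. Its protein is found only in mitochondria, and its gene is on chromosome 2 at 130563742 to 130568695. The DMSO libraries had 67.6, 69.5, 68.6 and 73.8 CPM and the 4-OI libraries 63.0, 60.9, 61.4 and 57.6 CPM. All 4-OI libraries were lower, with a log2 fold change of -0.21 (SE 0.04, 95% confidence interval -0.28 to -0.13, edgeR adjusted p = 0.000114). The call was lost in 1 of 16 alternatives, limma on FPKM (adjusted p = 0.0615, with a range over the alternatives of 7.43e-07 to 0.0615). Mrps25, also found only in mitochondria, had 61.6, 60.2, 57.4 and 58.4 CPM with DMSO and 53.9, 53.8, 53.7 and 55.1 CPM with 4-OI. Its groups did not overlap (log2 fold change -0.13, SE 0.03, adjusted p = 0.00236), but limma on TPM gave an adjusted p of 0.362 and on FPKM of 0.398 (range over the alternatives 0.000752 to 0.398). Mrps25 overlaps Nr2c2 on the other strand, which was at 52.7 CPM with a log2 fold change of -0.05.

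Mrps28, related to bacterial S1, had 31.2, 33.9, 30.0 and 33.5 CPM with DMSO and 28.4, 31.9, 29.8 and 27.1 CPM with 4-OI. The groups overlapped (log2 fold change -0.14, SE 0.05, edgeR adjusted p = 0.0455). The call was lost without any one of DMSO replicates 2 and 4 and 4-OI replicates 1, 3 and 4 (adjusted p 0.0687 to 0.148). It was also lost with edgeR on library totals (adjusted p = 0.0831), limma on TPM (0.145), limma on FPKM (0.184) and DESeq2.

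Of those that rose, Mrps5, whose bacterial counterpart lines the path of the messenger RNA, had 92.2, 89.9, 90.1 and 95.8 CPM with DMSO and 102, 98.1, 98.5 and 98.4 CPM with 4-OI. The 4-OI libraries were all higher (log2 fold change 0.11, SE 0.03, edgeR adjusted p = 0.00540), and the call held in all 16 alternatives. Mrps33, found only in mitochondria, rose from 33.7, 36.0, 34.1 and 34.5 CPM to 35.4, 38.5, 38.2 and 40.5 CPM (log2 fold change 0.14, adjusted p = 0.0125). 1 of its 4-OI libraries lay within the DMSO range. The adjusted p was 0.614 with limma on TPM and 0.527 with limma on FPKM (range over the alternatives 0.00248 to 0.614). Mrps31, of the same kind, rose from 21.9, 21.1, 23.2 and 21.8 CPM to 23.1, 23.3, 24.4 and 25.9 CPM (log2 fold change 0.14, adjusted p = 0.0338). Its groups overlapped by 1 library, and the call was lost without any one of DMSO replicates 1, 2 and 4 and 4-OI replicates 3 and 4 (adjusted p 0.0587 to 0.111). The Mrps31 call was also lost with GC and length offsets in edgeR (adjusted p = 0.0636) and DESeq2 (0.0886). Mrps9, also named after its value was seen, went from 45.4 ± 0.906 to 49.5 ± 2.33 CPM (log2 fold change 0.13, adjusted p = 0.0101), and had an adjusted p of 0.0515 without 4-OI replicate 3 (range over the alternatives 0.00155 to 0.0515).

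The 3 forms of the S18 protein, which occupy different places in the mitochondrial ribosome, had different values. Mrps18a, the large-subunit form, has its gene on chromosome 17 at 46110986 to 46128910. It rose from 28.3, 27.1, 25.4 and 24.9 CPM to 27.7, 31.1, 30.9 and 31.7 CPM. 4-OI replicate 1 lay below DMSO replicate 1 and the other 4-OI libraries were higher than all DMSO libraries. The log2 fold change was 0.20 (SE 0.05, 95% confidence interval 0.09 to 0.31, edgeR adjusted p = 0.00417), and the call held in all 16 alternatives. Mrps18b was at 63.9 ± 2.94 and 60.4 ± 3.96 CPM (log2 fold change -0.08, adjusted p = 0.149), and Mrps18c at 15.8 ± 0.985 and 17.0 ± 1.22 CPM (0.11, adjusted p = 0.178). The differences between the forms were not tested.

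Among other small-subunit symbols, Mrps12, at the decoding centre, was at 25.4 ± 1.32 and 24.7 ± 0.690 CPM (adjusted p = 0.562). Mrps6 was at 81.6 ± 0.671 and 80.7 ± 2.35 CPM, with an interval of -0.08 to 0.04 (adjusted p = 0.672). Mrps21, the most abundant, had a log2 fold change of 0.02 (adjusted p = 0.801). Mrps30, a large-subunit protein in place, was at 40.5 ± 1.69 and 41.2 ± 1.64 CPM (adjusted p = 0.649), and Mrps36 at 14.0 ± 0.633 and 13.9 ± 0.711 CPM (adjusted p = 0.835).

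The pair formed by Mrpl14 and Tmem63b led to a count of members that start beside a protein-coding gene on the other strand, with starts within 1000 bases in GENCODE M21, a definition chosen after that pair was seen. It held for 33 members in 32 pairs. Mrpl46 and Mrps11 form 1 such pair with each other, and neither was called. Of the other pairs, 29 had a partner that was tested. Partners were called in 10 of the 29 pairs (34.5%), 7 higher and 3 lower, beside 38.8% of all genes tested, 19.3% higher and 19.6% lower. Both genes were called in 2 pairs, Mrpl14 with Tmem63b and Mrps5 with Zfp661 (Zfp661 log2 fold change 0.50, SE 0.11, edgeR adjusted p = 0.000942, at a mean of 4.55 CPM), and both pairs rose.

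In 8 pairs only the partner was called. Next to Mrpl2, Klc4 rose (log2 fold change 0.32, adjusted p = 0.000207), while Mrpl2 was at 0.03. Next to Mrpl32, the proteasome gene Psma2 rose (0.20, adjusted p = 1.22e-06). Next to Mrps18b, Ppp1r10 fell (-0.21, adjusted p = 2.59e-05), and next to Mrpl51, Ncapd2 fell (-0.19, adjusted p = 4.50e-06). In 4 pairs only the member was called, as for Mrpl54 with Apba3 (0.02) and Mrpl18 with Tcp1 (0.02). In the remaining 15 pairs neither gene was called. In 14 of the 32 pairs the genes share exon bases, so reads there may not be told apart. Of the called members this touched Mrpl14, Mrpl18 (141 bases shared with Tcp1), Mrpl21 (117 with Ighmbp2) and Mrpl47 (616 with Ndufb5).

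**Figure D4:**
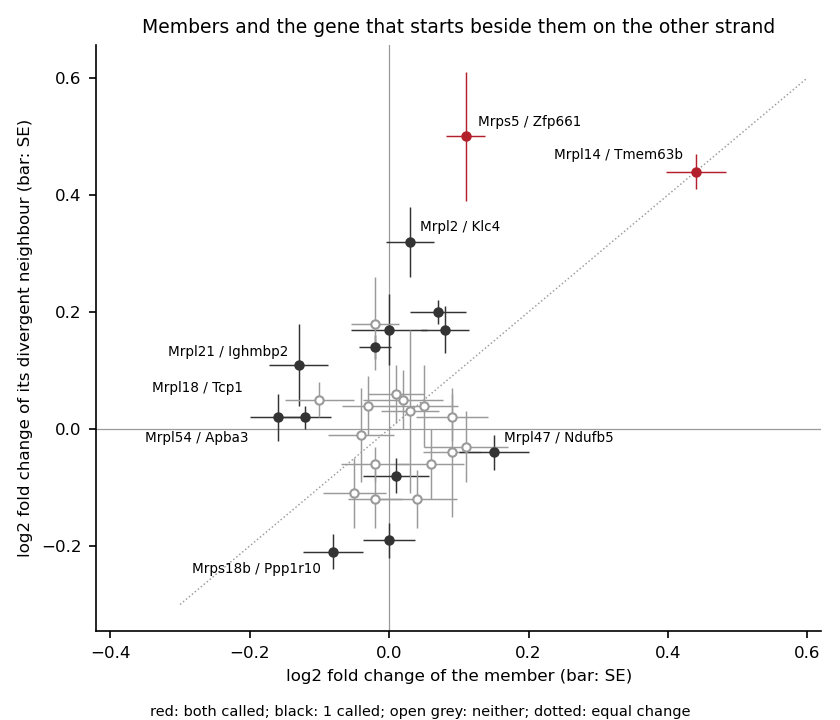
Log2 fold change of a member against that of the protein-coding gene starting within 1000 bases on the other strand, for 30 pairs with SE bars from edgeR's fit. Mrpl14 with Tmem63b lies at 0.44 on both axes. Mrpl2 with Klc4 lies at 0.03 and 0.32, and Mrpl21 with Ighmbp2 at -0.13 and 0.11.

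The rest of the machinery was read from lists of genes by function. Of 5 mitochondrial ribosomal proteins under other symbols (Dap3, Ptcd3, Chchd1, Aurkaip1, Gadd45gip1), edgeR called 0, with 0 at an unadjusted p under 0.05 and 0 by DESeq2. Dap3, a small-subunit protein that binds GTP, was at 93.3 ± 0.788 CPM with DMSO and 93.3 ± 0.943 CPM with 4-OI. For the lists that follow, the shares over all genes tested were 38.8% called, 19.3% higher and 19.6% lower. Of 28 assembly genes 8 rose and 1 fell (32.1% called, median log2 fold change 0.03). Spg7 and Afg3l2, the genes on the list that belong to the m-AAA protease that matures Mrpl32, both rose. Spg7 went from 78.3 ± 3.47 to 92.3 ± 1.83 CPM (log2 fold change 0.24, adjusted p = 6.37e-06). Afg3l2 went from 152 ± 2.39 to 172 ± 7.34 CPM (0.18, adjusted p = 4.71e-05). Afg3l2 was named after its value was seen. The GTPase Mtg1 had the highest value of the list (0.26, adjusted p = 0.00847), and the pseudouridine synthase Trub2 fell (-0.14, adjusted p = 0.0136).

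Of 15 translation factors 2 rose and 2 fell (26.7% called). Mtfmt, which formylates the initiator tRNA, rose (log2 fold change 0.20, edgeR adjusted p = 0.0159), as did the initiation factor Mtif2 (0.18, adjusted p = 0.00401). The recycling factor Mrrf fell (-0.16, adjusted p = 0.0103), as did Lrpprc, which stabilises mitochondrial messenger RNA (-0.10, adjusted p = 0.00278). Of 20 genes for charging mitochondrial tRNA 4 rose and 1 fell, led by Fars2 (0.32, adjusted p = 0.000341) and Mars2 (-0.20, adjusted p = 0.00278). Vars2 rose as well (0.16, adjusted p = 0.00735). Of 9 genes of mitochondrial DNA transcription and upkeep 1 rose, the transcription factor Tfb2m (0.13, adjusted p = 0.00769). These lists thus held calls in both directions except the last.

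Of 9 regulators of mitochondrial biogenesis, 8 were tested and 3 fell. Ppargc1a, with 4 to 10 counts per library, was not tested. Nrf1, which encodes the transcription factor NRF1, fell from 41.1 ± 2.77 to 36.3 ± 0.698 CPM (log2 fold change -0.18, edgeR adjusted p = 0.00322). Pprc1 (-0.11, adjusted p = 0.0185) and Yy1 (-0.09, adjusted p = 0.0151, outside the naming rule and named after its value was seen) fell too. Of the 13 protein-coding genes of mitochondrial DNA, 6 fell and 0 rose (0 rose at an unadjusted p under 0.05 and 0 by DESeq2). Their median log2 fold change was -0.10. The 6 that fell were 46.2% of the 13, beside 19.6% lower and 19.3% higher among all genes tested. mt-Nd4l (-0.25, adjusted p = 0.00236) and mt-Nd6 (-0.17, adjusted p = 0.000209) had the largest changes. The libraries of the groups overlapped for mt-Nd4l, at 283 ± 7.80 CPM with DMSO and 238 ± 32.0 CPM with 4-OI. Of 83 cytosolic ribosomal protein genes tested, 16 fell (19.3%) and 0 rose (0 rose by DESeq2), with a median of -0.04. Log2 fold changes were negative for 70 of them and positive for 13. The number that fell was 8 with plain library totals, where 1 rose, and 38 with offsets for GC content and length. Over all genes 2646 fell, and 2323 and 3032 under these settings. Rps28 (-0.19, adjusted p = 0.00197) and Rpl29 (-0.16, adjusted p = 6.61e-05) fell most. Many genes of that list have near-identical pseudogenes, so their counts are less certain. The plot of calls by list shows these counts beside those of the mitochondrial ribosome.

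**Figure D5:**
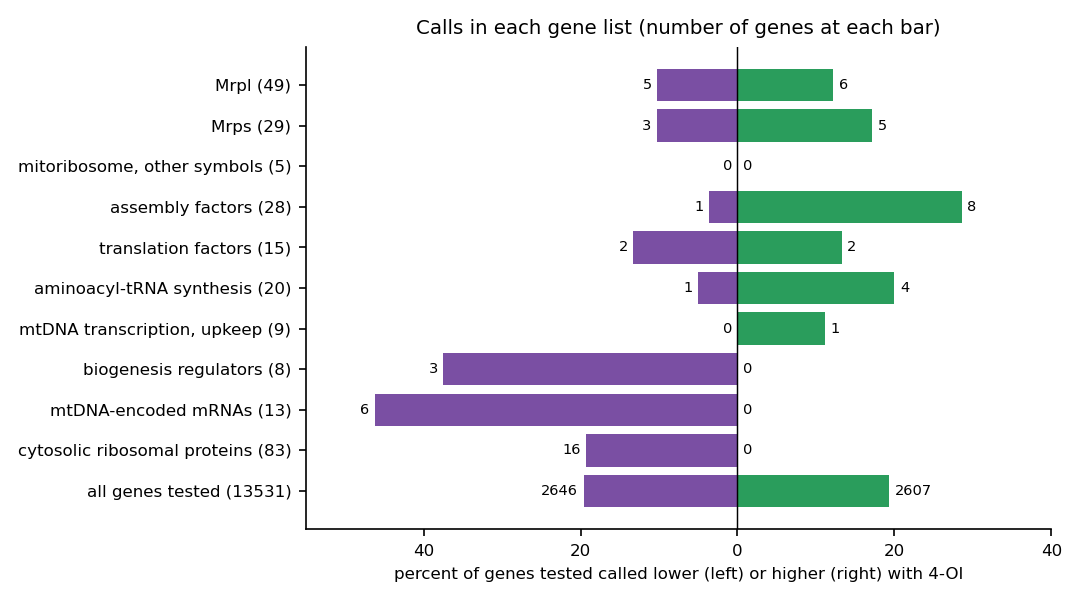
Percent of the genes tested in each list that were called lower (left) or higher (right) with 4-OI, with the number called at each bar and the number tested in parentheses. The Mrpl genes have 6 higher and 5 lower and the Mrps genes 5 and 3. The protein-coding genes of mitochondrial DNA (mtDNA-encoded mRNAs in the plot) have 6 lower of 13.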

How the data were processed

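PolyA RNA was measured in 8 libraries, 4 per group; groups and replicate numbers came from the titles, and columns by the descriptions. RSEM 1.3.3, STAR 2.7.8a and cutadapt 2.3 were used on GRCm38 per the submitters' processing notes, which also name FastQC 0.11.8 and MultiQC 1.7; the sources used here give no roles, annotation release or strand setting. The authors deposited expected counts (here whole numbers), TPM and FPKM for 55492 genes, of which 28382 were at 0 in all libraries. The labels speak of 4 experiments per condition but do not name separate cultures, so p-values cover the spread among these libraries and no more. Libraries differed by more than sampling noise in each group (chi-square per degree of freedom 1.88 to 4.84).

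The test was edgeR 4.0.16 (R 4.3.3) on the expected counts: filterByExpr (minimum count 10), TMM scaling, the two-sided quasi-likelihood test, and Benjamini-Hochberg adjustment over 13531 genes, with calls at 0.05. It was tested on simulated data. The common biological coefficient of variation was 3.1%. CPM used the TMM factors. Alternatives were other scalings, no filter, a replicate block, GC and length offsets, limma 3.58.1 on log2(TPM + 1) and log2(FPKM + 1), DESeq2 1.42.0 and leaving out each library.

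The members and lists were chosen with earlier results of these data known. Named members were the 8 largest calls in each direction, the 3 highest and 3 lowest of each subunit by TPM and those with a role of their own, and in each other list the 2 largest calls in each direction. Motifs, pairs of neighbours and the gap between TPM and counts were chosen after the data were seen. Where a symbol stood on several rows (114 symbols, no member), the row with the highest mean was used. Positions and lengths came from GENCODE M21, and figures were drawn with matplotlib.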

Additional observations from a re-analysis of the deposited data

Results flagged for a closer look

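In 35 named members, 70 groups of 4 libraries were checked for 1 library far from the other 3, and 4 were found, while chance gives about 1 in 20 groups. Mrpl12 was low in DMSO replicate 3 at 79.7 CPM, with the other DMSO libraries at 87.1 to 88.6; without that library its log2 fold change was -0.13 (edgeR adjusted p = 0.00317). Mrpl16 was high in 4-OI replicate 4 at 15.9 CPM, with the others at 14.7 to 14.9. Mrps25 was high in 4-OI replicate 4 at 55.1 CPM, with the others at 53.7 to 53.9. Mrps5 was high in 4-OI replicate 1 at 102 CPM, with the others at 98.1 to 98.5.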

How the results depend on the processing

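Of the 19 calls, 7 were made in all 16 alternatives: Mrpl14, Mrps18a, Mrpl38 and Mrps5 higher, and Mrpl33, Mrpl54 and Mrpl18 lower. The count of members called lower was 8, and 4 with limma on TPM, 3 with limma on FPKM and 5 with DESeq2. Over all genes the counts lower were 2646, 1620, 1535 and 2192 in the same order. Leaving out 1 library gave 7 to 14 members higher, 7 without 4-OI replicate 3, and 5 to 9 lower, 5 without 4-OI replicate 1 or 3. The median log2 fold change of the Mrpl genes was 0.023, and 0.040 with library totals, 0.049 with TPM and 0.057 with FPKM; it was 0.007 with GC and length offsets, and leaving out 1 library gave 0.016 to 0.034. The Mrps median was -0.007, and -0.022 with GC and length offsets, 0.011 with library totals, 0.009 with TPM and 0.017 with FPKM. For the Mrps median, leaving out 1 library gave -0.009 to 0.012. The median over all genes moved as well. It was 0.000 in the main fit, 0.018 with library totals, 0.007 with TPM, 0.013 with FPKM and -0.010 with GC and length offsets. The sign turned for members that were not called: Mrps6 with library totals (0.0003), Mrps6 and Mrpl13 with FPKM (0.002 each), and, on leaving out 1 library, Mrpl28 (-0.001 to 0.058), Mrpl58 (-0.004 to 0.094), Mrps21 (-0.024 to 0.058), Mrps36 (-0.048 to 0.012) and Mrps6 (-0.034 to 0.001). For named members, 486 of 560 values kept their direction and side of the threshold. The cause of these shifts was not tested. Libraries that share a replicate number did not deviate together (correlations 0.069, 0.07, -0.014 and -0.016, and 2 of 4 matched their own number best), so the numbers were not read as a pairing; with a replicate block 11 members were higher and 8 lower, as without it. Depth was no limit on detecting any member, with at least 295 counts in each library.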
